A study of Rattus norvegicus with 6 samples.

Results

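The synaptonemal complex genes described here are Sycp1, Sycp2 and Sycp3, taken as every probe set of the array whose platform annotation gives exactly 1 of these symbols. Each gene had 1 such probe set, so there were 3 among 7018 probe sets with 1 symbol and 8799 in all, and each of the 3 passed the filter on dim probe sets. The 3 genes are among 4737 named ones. The samples were 6 pools of about 20 whole rat ovaries each, and the total RNA of each pool was hybridized to its own array of the Affymetrix Rat Genome U34 Set A design, with pools of a group described by the labels as independent. The groups were ovaries taken at birth and then cultured for 7 days (cultured, 2 arrays), ovaries taken on postnatal day 4 (P4, 2 arrays) and ovaries taken at birth with no culture (P0, 2 arrays). Culture was on floating filters in DMEM and Ham's F-12 medium with serum albumin, Albumax, transferrin, insulin, ascorbic acid and antibiotics. The labels used here give neither strain nor genotype. The series design text also mentions cultured ovaries given progesterone, and the labels do not say whether a cultured array here held such ovaries.

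The synaptonemal complex is the protein ladder that holds homologous chromosomes side by side during meiotic prophase. Sycp2 and Sycp3 encode proteins of its lateral elements, which form along each chromosome axis, and Sycp1 encodes the transverse filament that bridges the 2 axes. Rodent oocytes enter meiosis before birth, and around birth they reach the diplotene arrest, in which the complex is taken apart, while their clusters break up into primordial follicles.

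Sycp3 was high in newborn ovaries and low in both other groups. It had intensities of 34.6 and 28.1 on the cultured arrays, 41.7 and 43.0 on the P4 arrays, and 300.0 and 184.6 on the P0 arrays. Both P0 arrays lay far above the other 4, with no overlap. Of all tested probe sets, 25.7% had both P4 arrays below both P0 arrays, and 29.0% had both cultured arrays below them. The mean of Sycp3 was 42.4 ± 0.919 at P4 and 242.3 ± 81.6 at P0 (SD, n = 2 each), 5.72-fold lower at P4. On the log2 scale, with a pseudocount of 7.7 added to each intensity, Sycp3 fell by 2.28 between P4 and P0 ovaries (SE 0.27, 95% interval -2.89 to -1.68, limma adjusted p = 0.00568). That was the lowest log2 change of all 6118 probe sets in the fit, whose median was -0.05. In this whole tissue, fewer cells of a type and less RNA per cell cannot be told apart.

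Sycp1 was likewise higher on the P0 arrays than on all others. It read 19.8 and 21.7 on the cultured arrays, 27.3 and 17.1 on the P4 arrays, and 115.9 and 77.7 on the P0 arrays. Again both P0 arrays stood above the other 4, and the same shares of all tested probe sets apply. An intensity of 20 was the highest that any of 15 control probe sets for unspiked bacterial transcripts reached on a single array, so 1 P4 array and 1 cultured array lay just under that level. With such arrays set to 20, Sycp1 was at least 4.09-fold lower at P4 than at P0. It fell by 1.80 on the log2 scale (SE 0.29, 95% interval -2.46 to -1.14, limma adjusted p = 0.0281), the eleventh lowest change of the 6118. This call ended when any 1 of the 6 arrays was left out (adjusted p from 0.0651 to 0.103).

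Sycp2 did not pass between P4 and P0. It read 38.4 and 46.6 on the cultured arrays, 51.8 and 56.0 on the P4 arrays, and 120.6 and 56.6 on the P0 arrays. The second P0 array lay just above the P4 arrays, and the first alone was high. The log2 change of Sycp2 between P4 and P0 was -0.56 (SE 0.32, 95% interval -1.28 to 0.16, limma adjusted p = 0.521), and it was -0.06 without P0 replicate 1 and -1.06 without P0 replicate 2.

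**Figure D1:**
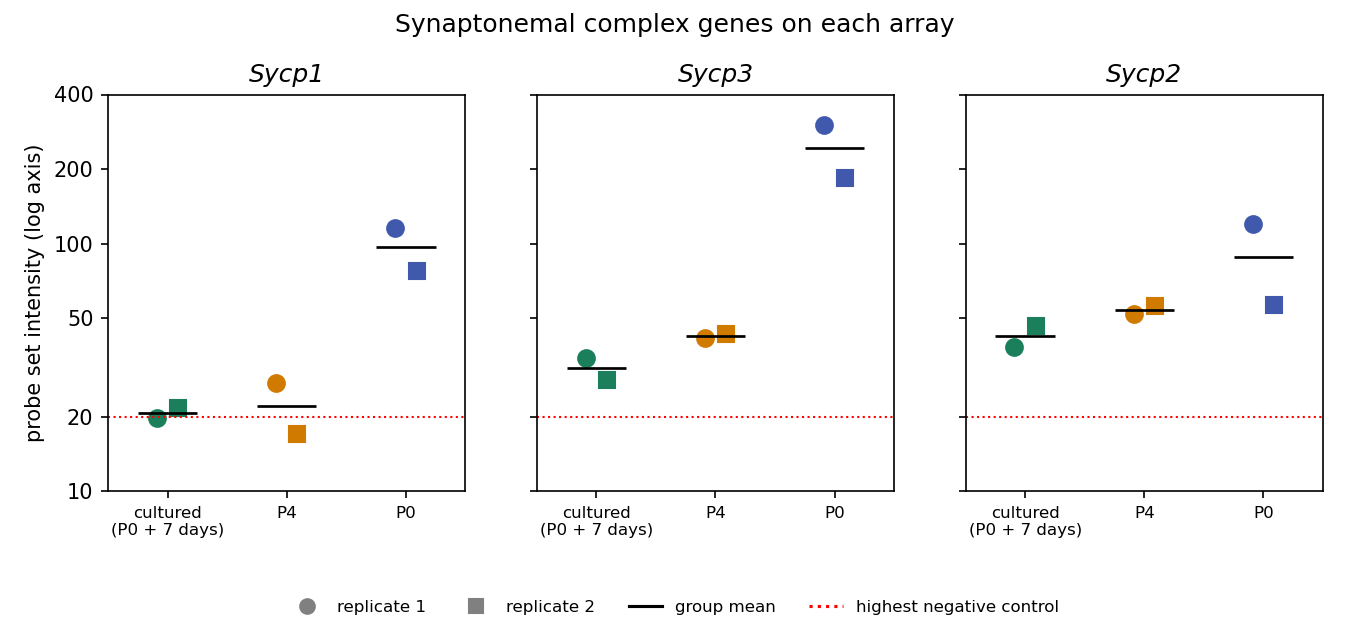
Probe set intensity (log axis) of Sycp1, Sycp3 and Sycp2 on each of the 6 arrays, in cultured, P4 and P0 ovaries, with circles for replicate 1, squares for replicate 2, black lines for group means and a dotted red line at 20, the highest negative control intensity. The P0 arrays of Sycp3 (300.0 and 184.6) and Sycp1 (115.9 and 77.7) stand apart from the other 4, whereas the second P0 array of Sycp2 (56.6) lies next to the P4 arrays (51.8 and 56.0).

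Between P4 and P0, 2 of the 3 genes therefore fell, none rose and 1 did not pass, against 1.08% of all tested probe sets called in either direction, 0.229% lower and 0.85% higher. In each gene both P4 arrays read below both P0 arrays, an ordering shared by 25.7% of the tested probe sets. P0 and P4 arrays with the same replicate number share a chip identifier batch, A or B, per the labels, and with this batch as a block in limma 5.13% of the probe sets were called. Within batch A, the log2 change between P4 and P0 was -2.64 for Sycp3, -1.82 for Sycp1 and -1.11 for Sycp2. Within batch B it was -1.92 for Sycp3, -1.78 for Sycp1 and -0.01 for Sycp2. The P4 array of Sycp1 in batch B read 17.1, below the level of 20, so the change of Sycp1 there depends on the pseudocount. The Sycp2 arrays of batch B read 56.0 at P4 and 56.6 at P0, nearly the same. An exact permutation test of 2 arrays against 2 cannot go below p = 0.33. The differences between the changes of the 3 genes were not tested.

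Sycp3 and Sycp1 were also lower in cultured than in P0 ovaries. Sycp3 averaged 31.4 ± 4.60 in cultured and 242.3 ± 81.6 in P0 ovaries (SD, n = 2 each), 7.73-fold lower in culture. It fell by 2.64 on the log2 scale (SE 0.27, 95% interval -3.25 to -2.04, limma adjusted p = 0.000588), the seventh lowest change of the 6118. Sycp1 averaged 20.8 ± 1.34 in cultured and 96.8 ± 27.0 in P0 ovaries (SD, n = 2 each), at least 4.64-fold lower in culture. It fell by 1.85 (SE 0.29, 95% interval -2.51 to -1.20, limma adjusted p = 0.00817), a call that ended without P0 replicate 1, cultured replicate 1 or cultured replicate 2 (adjusted p = 0.0571, 0.0589 and 0.0597). The log2 change of Sycp2 was -0.86 (SE 0.32, 95% interval -1.58 to -0.14, limma adjusted p = 0.162). Without P0 replicate 2 the change of Sycp2 was -1.36 and passed (adjusted p = 0.0494), and without P0 replicate 1 it was -0.36 (adjusted p = 0.597). So 2 of 3 genes fell and 1 did not pass, against 5.43% of all tested probe sets called in either direction, 1.95% lower and 3.48% higher. Both cultured arrays read below both P0 arrays in all 3 genes, as they did for 29.0% of the tested probe sets. The comparisons of P4 and of cultured ovaries with P0 share the P0 arrays, so they are not independent of each other. Each cultured array has a chip batch of its own, so culture and chip batch cannot be told apart.

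Between cultured and P4 ovaries none of the 3 genes passed, against 2.78% of all tested probe sets called, 0.621% lower and 2.16% higher. The log2 change was -0.36 for Sycp3 (95% interval -0.97 to 0.24, limma adjusted p = 0.643), -0.05 for Sycp1 (95% interval -0.71 to 0.61, adjusted p = 0.966) and -0.30 for Sycp2 (95% interval -1.02 to 0.42, adjusted p = 0.787). Both cultured arrays of Sycp3 and Sycp2 read below both P4 arrays, an ordering that 24.5% of the tested probe sets had, while the Sycp1 arrays overlapped. The intervals leave room for differences of either sign in each gene.

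**Figure D2:**
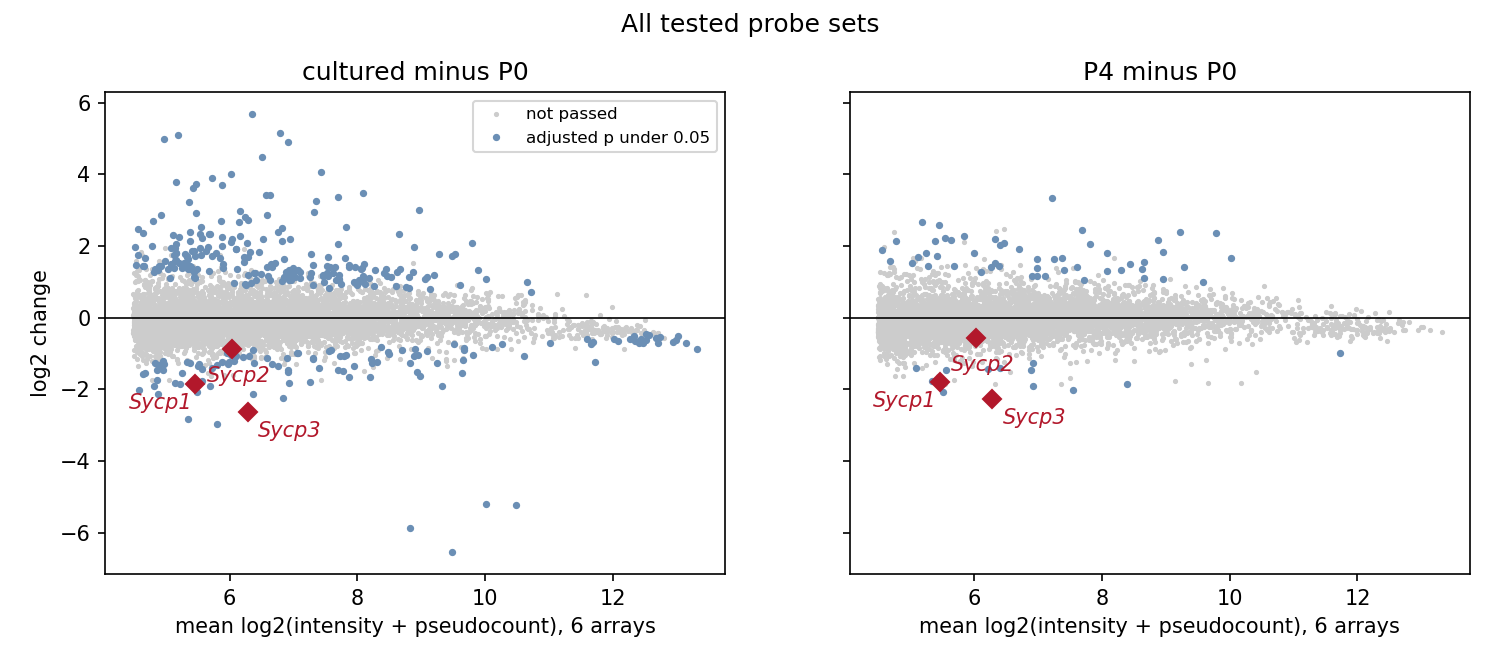
Log2 change of every tested probe set against its mean log2(intensity + 7.7) over the 6 arrays, for cultured minus P0 (left) and P4 minus P0 (right). Blue points passed (limma adjusted p under 0.05), grey points did not, and red diamonds are the 3 synaptonemal complex genes: Sycp3 is the lowest point for P4 minus P0 (-2.28) and the seventh lowest for cultured minus P0 (-2.64), and Sycp2 lies among the grey points of each panel.

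The P0 arrays themselves differed in the same direction for all 3 genes. The intensity of P0 replicate 1 was 1.63 times that of P0 replicate 2 for Sycp3, 1.49 times for Sycp1 and 2.13 times for Sycp2. A share of 7.09%, 11.7% and 2.34% of the tested probe sets had a higher log2 difference between these arrays than Sycp3, Sycp1 and Sycp2. Over all tested probe sets the median log2 difference was 0.04. The germ cell RNA helicase gene Ddx4 was also higher on that array, by 1.51 times. Kit, the other germ cell gene measured, read 0.916 times on its brighter probe set and 1.27 times on the other. Zp1, Zp2 and Zp3, which encode the coat of the oocyte, read 0.959, 0.835 and 0.917 times, and the connexin gene Gja4 0.86 times. The 9 probe sets for spiked bacterial and phage transcripts were high on P0 replicate 1 too, at 1.71 times the mean of the 6 arrays, against 0.734 to 1.14 times on the other 5. The part of these controls in the member values was examined only by scaling the arrays to them. Sycp3 then still passed at log2 changes of -2.02 for P4 and -1.99 for cultured against P0 (limma adjusted p = 0.00194 and 0.000422), and Sycp1 did not (-1.54 and -1.24, adjusted p = 0.055 and 0.0586).

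The regions before the gene starts are shown as a description, and any part of them in the changes was not tested. RefSeq annotation of the GRCr8 build places Sycp1 at chr2:192985164-193145234, Sycp2 at chr3:185814033-185876516 and Sycp3 at chr7:24761476-24775933. The RefSeq promoter table of that build, matched for all 3 symbols, gives a window from 250 bases before to 50 after one start of each gene. The 250 bases before the start follow, on the gene's own strand, and the gene records of Sycp1 and Sycp2 extend past that start into the stretch shown. These are chr2:193145181-193145430 (minus strand), chr3:185876493-185876742 (minus strand) and chr7:24761226-24761475 (plus strand). Capitals mark matches, on either strand, to 4 motifs: TCCCGC (E2F core), CNCCTCAG (the motif of STRA8, the meiotic entry factor, known from mouse), GGGCGG (GC box) and TGACGTCA (full cyclic AMP response element).
Sycp1: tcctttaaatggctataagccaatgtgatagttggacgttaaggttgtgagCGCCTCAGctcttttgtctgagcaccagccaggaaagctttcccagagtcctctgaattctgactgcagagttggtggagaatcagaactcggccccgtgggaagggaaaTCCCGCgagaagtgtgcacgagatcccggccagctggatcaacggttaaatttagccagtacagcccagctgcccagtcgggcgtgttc
Sycp2: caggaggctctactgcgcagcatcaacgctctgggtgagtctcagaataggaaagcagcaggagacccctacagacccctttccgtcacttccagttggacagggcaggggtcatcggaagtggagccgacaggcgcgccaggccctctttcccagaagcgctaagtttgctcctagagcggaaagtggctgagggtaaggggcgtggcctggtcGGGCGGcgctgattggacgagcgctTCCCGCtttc
Sycp3: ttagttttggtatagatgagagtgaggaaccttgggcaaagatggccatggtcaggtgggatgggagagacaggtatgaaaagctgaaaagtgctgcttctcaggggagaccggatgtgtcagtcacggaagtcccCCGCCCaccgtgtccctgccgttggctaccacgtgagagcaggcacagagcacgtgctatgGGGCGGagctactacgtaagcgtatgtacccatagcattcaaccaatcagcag

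Each of the 3 windows held 1 E2F core, as did 18.7% of 33469 rat promoter windows of the same length. It lay 89 bases before the start in Sycp1, 10 bases before it in Sycp2 and 30 bases after it in Sycp3, where it overlapped a GC box. The STRA8 motif was found once in Sycp1, 199 bases before the start, and once in Sycp2, 17 bases after it on the other strand, and 8.86% of all windows held it. GC boxes numbered 0 in Sycp1, 1 in Sycp2 and 3 in Sycp3, and 33.1% of all windows held at least 1. None of the 3 windows held the full cyclic AMP response element, which 1.83% of all windows held. CG dinucleotides numbered 13 in Sycp1, 20 in Sycp2 and 11 in Sycp3, against a median of 7 over all windows. These matches describe letters in the windows, and no binding was measured.

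Ddx4, a marker of germ cells at all these stages, did not pass in any comparison. It read 139.6 and 171.5 on the cultured arrays, 193.9 and 206.6 on the P4 arrays, and 241.0 and 159.9 on the P0 arrays, and the P4 arrays lay between the P0 arrays. Its log2 change was 0.03 between P4 and P0 (95% interval -0.53 to 0.58, limma adjusted p = 0.982) and -0.33 between cultured and P0 (95% interval -0.88 to 0.22, adjusted p = 0.498). The upper ends of the intervals of Sycp3 and Sycp1 against P0 lie below the lower ends of those of Ddx4 in both comparisons. The difference between the genes' changes was not itself tested. Kit, the receptor for kit ligand on oocytes, was the other measured gene of the germ cell list, in which 2 of 21 had a probe set. Its brighter probe set had log2 changes of 0.51 between P4 and P0 (95% interval -0.11 to 1.12, adjusted p = 0.481) and 0.12 between cultured and P0 (95% interval -0.49 to 0.74, adjusted p = 0.853).

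Zona pellucida genes went the other way from Sycp1 and Sycp3 on the same arrays. Zp2 read 1374 and 1310 on the cultured arrays, 1782 and 1466 on the P4 arrays, and 282.4 and 338.3 on the P0 arrays. It rose by 2.36 between P4 and P0 and by 2.09 between cultured and P0 (limma adjusted p = 0.00155 and 0.000239). In the oocyte list, 3 of the 4 tested genes (Zp1, Zp2 and Zp3) rose and none fell in both comparisons with P0. Of all tested probe sets, 0.85% were called higher at P4 and 3.48% in culture. The fourth oocyte gene, Gja4, had log2 changes of 0.72 at P4 and 1.09 in culture (limma adjusted p = 0.443 and 0.111). The list's median change was 1.66 at P4 and 1.12 in culture, against medians of -0.05 and -0.08 over all tested probe sets. Mos, the oocyte kinase of meiotic maturation, was too dim to be tested, with no array above 17.2. The summed intensity of the 5 measured oocyte genes was 2928 to 3052 in cultured, 3740 to 3996 in P4 and 1009 to 1133 in P0 ovaries.

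**Figure D3:**
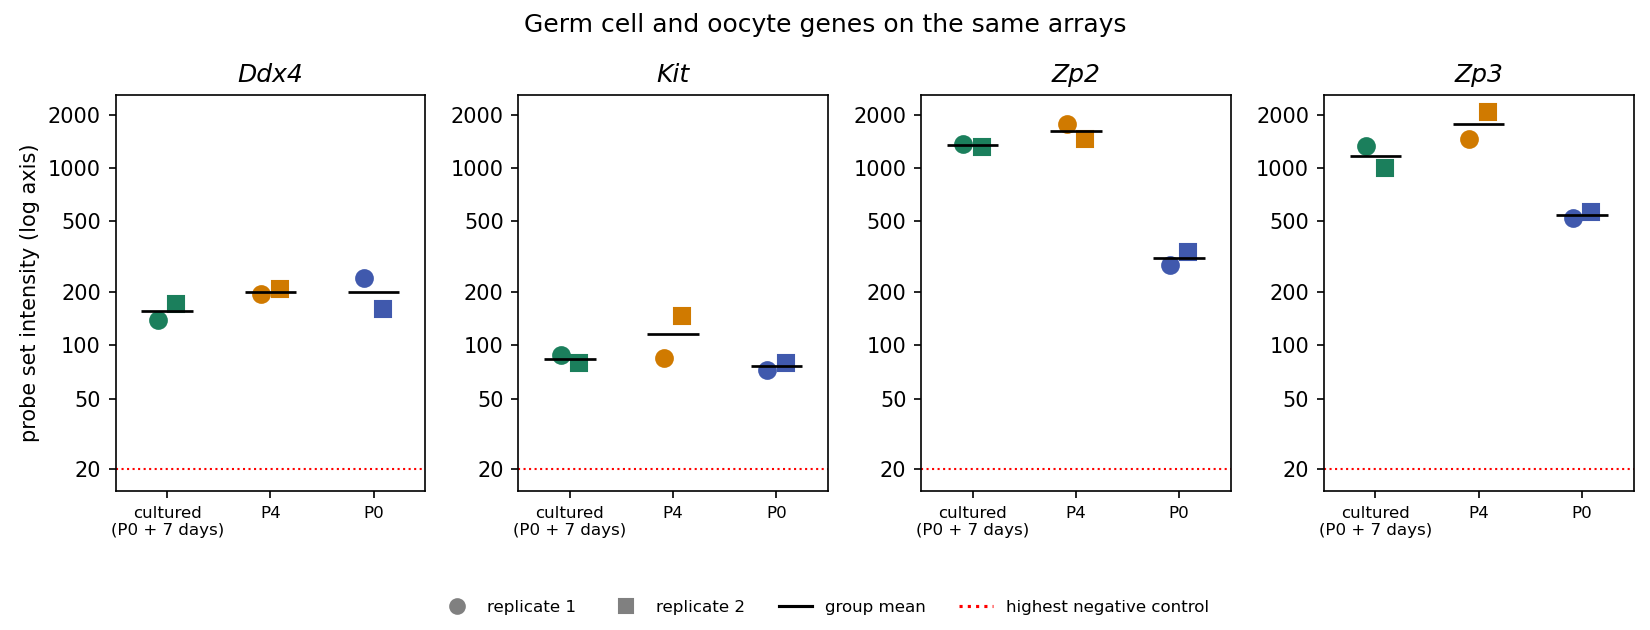
Probe set intensity (log axis) of the germ cell genes Ddx4 and Kit and the oocyte coat genes Zp2 and Zp3 on the 6 arrays, in cultured, P4 and P0 ovaries, with the same symbols as for the synaptonemal complex genes. Ddx4 lies between 139.6 and 241.0 on all arrays, and Zp2 is between 1310 and 1782 on the cultured and P4 arrays against 282.4 and 338.3 at P0.

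**Figure D4:**
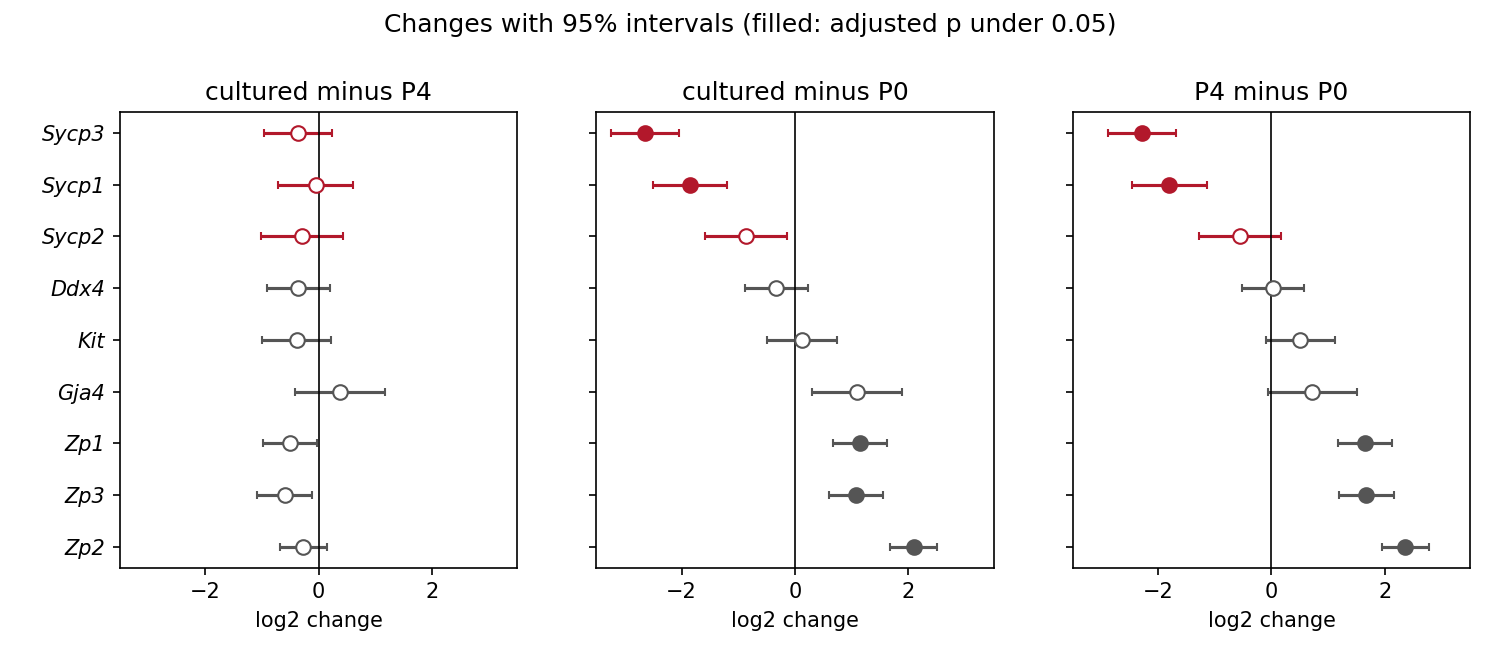
Log2 change with its 95% interval in the 3 comparisons for the synaptonemal complex genes (red) and for germ cell and oocyte genes (grey), filled where the limma adjusted p is under 0.05. Against P0, Sycp3 and Sycp1 lie below 0, Ddx4 and Kit have intervals that span 0, and Zp1, Zp2 and Zp3 lie above 0. No gene shown is filled between cultured and P4.

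None of the other tested genes listed for meiotic chromosomes passed in a comparison. Of all tested probe sets, 1.08% were called at P4 and 5.43% in culture against P0, and 2.78% between cultured and P4. For so few genes, no call at all is near those shares. Most listed genes had no probe set. Rec8, Stag3, Smc1b, Spo11, Dmc1 and Msh4 were among those not measured. Whether such genes fell with Sycp1 and Sycp3 therefore cannot be said. None of 9 further components and partners of the complex, such as Syce1 and Hormad1, had a probe set with that single symbol. Of 17 listed cohesin subunits and regulators, which hold sister chromatids together, 4 were measured. Their median log2 change was 0.40 at P4 and 0.18 in culture against P0, and 1 of the 4 was negative in each. The securin gene Pttg1 had one of 0.92 at P4 (adjusted p = 0.0621), the cohesin subunit genes Smc1a and Smc3 had 0.39 and 0.41 (adjusted p = 0.49 and 0.582), and the cohesin loader gene Nipbl had -0.74 (adjusted p = 0.582). Smc1a and Smc3 serve mitotic as well as meiotic cells. Nipbl read 67.3 on P0 replicate 1 and between 11.3 and 28.6 on the other 5 arrays, so its high array was the one that Sycp2 had.

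Of 35 genes of meiotic recombination and DNA break repair, 6 had a probe set and 5 were tested, none of which passed in any comparison. The shares of all tested probe sets called were 1.08% (P4 against P0), 5.43% (cultured against P0) and 2.78% (cultured against P4). No call in so small a list is near those shares, here and for the prophase regulators below. The medians of the 5 genes were 0.22 at P4 and 0.03 in culture against P0. Rpa2 and Rpa3, subunits of the protein that coats single-stranded DNA, had log2 changes of 0.55 and 0.60 at P4 (adjusted p = 0.269 and 0.466). The recombination mediator gene Brca2 had 0.18 and Rad52, a DNA annealing protein, had 0.22 (adjusted p = 0.828 and 0.811). Brca1 was too dim to be tested, with intensities of 2.7 to 5.8. Of 16 regulators of meiotic entry and prophase, 6 had a probe set and 3 were tested, with medians of 0.07 at P4 and -0.11 in culture and none past the threshold. Hspa2, a chaperone of the synaptonemal complex in mouse spermatocytes, read 23.3 and 26.8 on the cultured arrays, 27.6 and 32.1 on the P4 arrays, and 27.2 and 28.6 on the P0 arrays (log2 change at P4 0.07, adjusted p = 0.942). The kinase gene Cdk2 had a log2 change of 0.25 and the phosphatase gene Ppp1cc one of 0.03 at P4 (adjusted p = 0.859 and 0.976). Meioc, Rarb and Cyp26b1 stayed under 20 on every array.

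Among markers of other cells, only granulosa genes passed at P4 against P0, while genes of several lists passed in culture. Of all tested probe sets, 0.85% were called higher and 0.229% lower at P4. In culture against P0, 3.48% were called higher and 1.95% lower. Of 12 tested granulosa genes, 3 rose (Inha, Cyp19a1 and Serpine2) and none fell at P4 against P0. In culture 2 others rose (Krt8 and Krt18) and 1 fell (Fst). The summed intensity of the 14 measured was 2706 to 2789 in cultured, 4067 to 4798 in P4 and 3460 to 3604 in P0 ovaries. This sum joins opposite moves. From P0 to P4, the mean of Inha went from 316.4 to 1660, that of Krt19 from 1117 to 466.5 and that of Fst from 912.2 to 483.7. Krt19 and Fst did not pass there. Of 7 tested macrophage genes none passed at P4 and 4 rose in culture. The summed intensity of the 8 measured was 1778 to 3684 in cultured, 303.6 to 366.7 in P4 and 485.2 to 642.6 in P0 ovaries. Lyz2 alone read 2267 and 955.7 on the cultured arrays, so most of the cultured sum was that gene. Of 5 erythroid genes none passed at P4 and 2 fell in culture. Their sums were 183.3 to 200.7 in cultured, 2313 to 3118 in P4 and 3987 to 4168 in P0 ovaries. Hbb alone read 2776 and 2041 at P4 and 3738 and 3810 at P0, so these sums mainly follow that gene. Of 10 stroma genes none passed at P4 and 1 fell in culture, Postn, with sums of 15470 to 16080 in cultured, 17510 to 19610 in P4 and 19100 to 19550 in P0 ovaries. None of 6 smooth muscle and 4 tested endothelium genes passed against P0, and Vwf was under 20 on every array. The part of these cells in the synaptonemal complex values was not tested.

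The genes with the most similar profiles were sought among the 5026 other probe sets with 1 symbol in the fit, by Euclidean distance between log2 values over the 6 arrays, each centred on its own mean. For Sycp3 the nearest was Sycp1, at a distance of 0.919, followed by the cadherin gene Cdh22 (0.974), Egfl7 (1.28), a secreted factor of endothelium, the angiotensin receptor gene Agtr2 (1.36) and the matrix protein gene Postn (1.45). For Sycp1 the nearest was Cdh22, at 0.264, followed by the embryonic globin gene Hbe1 (0.782), Ces1dl1 (0.862), the mucin gene Muc5ac (0.874) and Sycp3. Hbe1 and Muc5ac each read under 20 on all 4 P4 and cultured arrays, Agtr2 on 3 of them and Egfl7 on 2, so their distances depend on the pseudocount. Cdh22 read 67.9 and 79.9 on the cultured arrays, 84.3 and 55.6 on the P4 arrays, and 374.8 and 210.4 on the P0 arrays. Like Sycp1, Cdh22 was therefore higher on P0 replicate 1 than on P0 replicate 2 and higher on P4 replicate 1 than on P4 replicate 2. It fell by 1.92 at P4 and by 1.83 in culture against P0 (limma adjusted p = 0.0262 and 0.0109). Cdh22 was picked for its nearness to Sycp1 on these same arrays, so these likenesses follow from the choice.

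Sycp2 lay at a distance of 1.42 from Sycp1 and 2.06 from Sycp3. Counted from Sycp2, 3410 and 4613 of the 5026 probe sets were nearer than Sycp1 and Sycp3. Counted from Sycp1 and from Sycp3, 91 and 84 of them were nearer than Sycp2. The distances were not scaled for the size of the changes, and Sycp3 and Sycp1 had some of the lowest changes of all. These ranks therefore also reflect size, besides the shape of a profile. The profiles nearest to Sycp2 were those of Or4c52 (0.297), the synaptic scaffold gene Homer1 (0.331) and the clathrin light chain gene Cltb (0.337). Next came the thioesterase gene Acot7 (0.363) and the steroid 21-hydroxylase gene Cyp21a1 (0.376). None of these 5 passed in any comparison, and each was highest on P0 replicate 1, as their choice by nearness to Sycp2 makes likely. Cltb and Cyp21a1 read under 20 on the 5 other arrays and Homer1 on 1, so their order there has no weight.

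**Figure D5:**
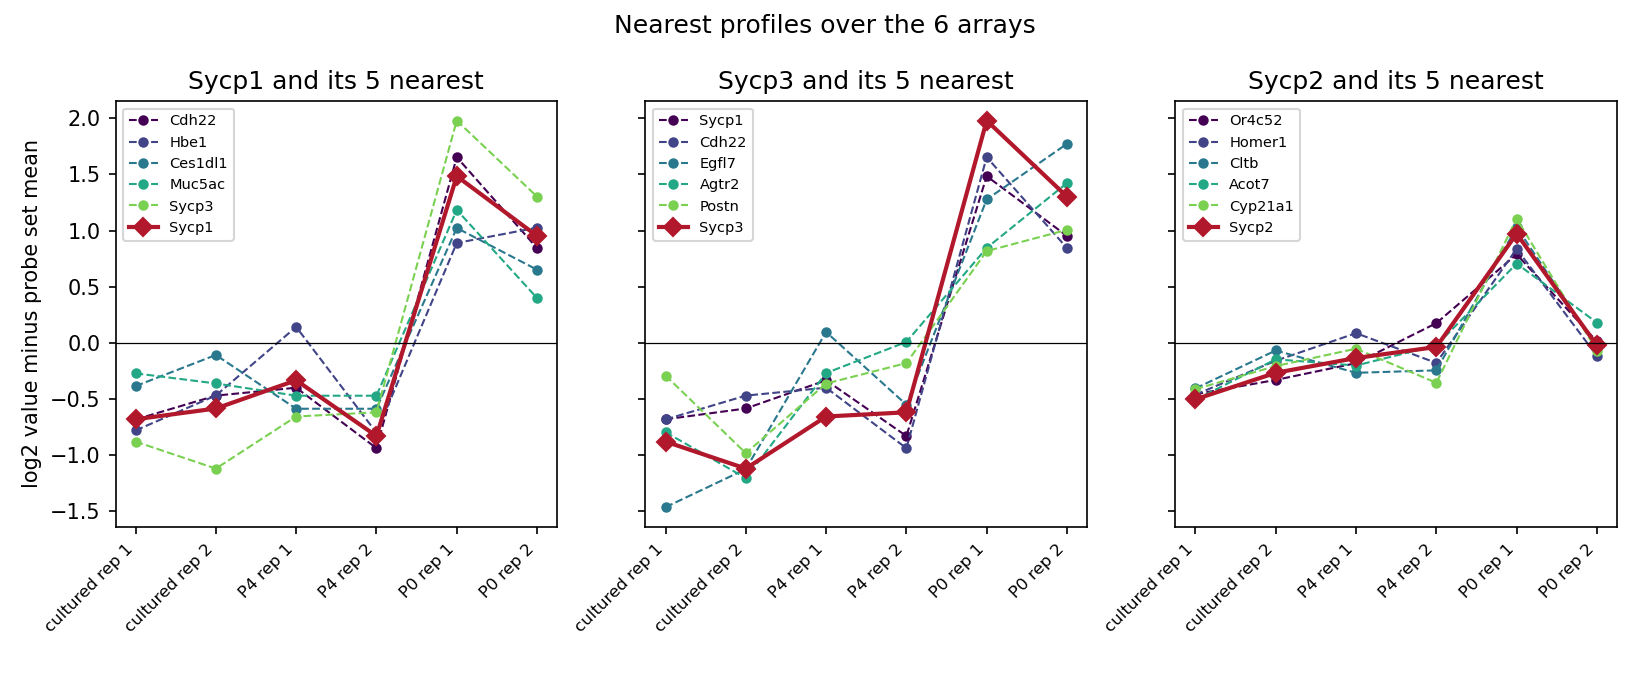
Log2 values over the 6 arrays, each centred on the probe set's own mean, for Sycp1, Sycp3 and Sycp2 (red diamonds) and the 5 probe sets nearest to each. The profiles around Sycp1 and Sycp3 are high on both P0 arrays, while those around Sycp2 are high on P0 replicate 1 alone. They were chosen for their likeness to each gene, so this follows from the choice.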

How the data were processed

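The values were linear probe set intensities deposited by the authors, already scaled: the mean after trimming 2% at each end was 124.5 to 125.0 on each array. RNA was biotin-labelled and hybridized by the manufacturer's procedures, per the labels' protocols. The summary algorithm is not given in the sources used here, and the number of arrays limits the precision, and no read depth applies.

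Symbols came from the platform annotation (7018 probe sets with 1, 308 with several, 1473 with none), of which 6994 were matched by gene number to a RefSeq table. A pseudocount of 7.7 (20th percentile of all values) was added before log2. After 59 control probe sets and 2622 below the 30th percentile of mean log2 were left out, 6118 were tested in 1 fit of 3 group means with limma 3.58.1 in R 4.3.3 (trend in variance, 3 residual degrees of freedom), two-sided, with Benjamini-Hochberg adjustment over all 6118, and an adjusted p under 0.05 was called. The fit was also run on simulated data with known changes. Those data had no chip batch effect and no tie between intensity and spread, so they do not test how the fit handles either.

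Lists (cohesin, recombination and repair, prophase regulators, germ cell, oocyte, granulosa, stroma, smooth muscle, endothelium, macrophage, erythroid) use the brightest tested probe set of each gene. Genes were named by rule: up to 4 list members of smallest p between P4 and P0, set germ cell and oocyte genes, and the 5 nearest profiles. Members and lists were chosen with earlier results of these data known. Nipbl, Mos, Brca1, Meioc, Rarb, Cyp26b1, Postn, Vwf, Lyz2, Krt8, Krt18, Krt19 and Fst were named for their values or dimness. Replicate numbers pair P0 and P4 arrays through the chip batch in the labels (deviations from group means correlated at 0.33 across probe sets).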

Additional observations from a re-analysis of the deposited data

How the results depend on the processing

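Of 144 re-computed member values, 126 kept their direction and their side of the threshold. Sycp3 did so against P0 under every alternative tried, with log2 changes of -2.62 to -1.94 (P4) and -2.98 to -2.31 (cultured) when 1 array was left out. Sycp1 between P4 and P0 ranged from -2.07 to -1.54 and lost its call without any 1 array; it also did without a filter on dim probe sets (log2 change -1.80, adjusted p = 0.0712) and in a fit of those 4 arrays alone (-1.80, adjusted p = 0.0653). Sycp1 between cultured and P0 ranged from -2.12 to -1.59, and Sycp2 from -1.36 to -0.36. A filter at the 50th percentile left Sycp1 out. With the chip batch as a replicate block, Sycp1 and Sycp3 kept their calls between P4 and P0 (adjusted p = 0.00176 and 0.000627), Sycp2 did not pass (adjusted p = 0.27), and 314 probe sets were called in place of 66. The count was 335 with a random block, 23 without the filter, 29 without a variance trend, 23 in the fit of 4 arrays and 15 to 55 with 1 array left out.

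Between cultured and P0 the count of 332 became 90 to 353 with 1 array left out, and between cultured and P4 the count of 170 became 86 to 193. Scaling to the spiked controls, added after the data were seen, moved the median of all probe sets to 0.17 (P4 minus P0), 0.57 (cultured minus P0) and 0.39 (cultured minus P4). Sycp1 then had -1.54 and -1.24 against P0 and lost both calls, and 558 probe sets were called between cultured and P0. Between cultured and P4, where none of the genes passed, it turned the signs to 0.30 for Sycp1, 0.12 for Sycp2 and 0.032 for Sycp3, each below that median. Sycp1 there ranged from -0.30 to 0.20 with 1 array left out. The causes of these moves were not tested.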
